A study of Mus musculus with 14 samples.

Results

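Interferon-stimulated genes are the genes that cells switch on when interferon binds its receptors. A list of 49 of them was matched to both count tables by gene symbol alone, out of 55367 symbols in each table. It holds 38 classical targets of type I interferon, 10 GTPases classically induced by interferon gamma, and the chemokine gene Cxcl10, which answers to both. Messenger RNA was sequenced in 2 experiments on wild-type mouse bone marrow cells depleted of mature lineages (Lin- cells) and grown with SCF, IL6 and IL3. In the first, cells carried the lentiviral vector pSMAL with luciferase (3 libraries) or with SETBP1-D868N (3 libraries), a mutant form of the nuclear protein SETBP1. In the second, all cells carried SETBP1-D868N, controls included, and received the solvent DMSO (4 libraries) or 2.5 µM of PF-9363, an inhibitor of MYST histone acetyltransferases (4 libraries), for 4 days. The vector expresses its insert in whichever cells it enters, the age and number of animals are not given in the labels, and no group of the second experiment lacks the mutant.

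Type I interferons signal through the receptor IFNAR and the kinases TYK2 and JAK1 to a complex that includes STAT2 and IRF9 and binds the interferon-stimulated response element of target promoters. Interferon gamma signals through IFNGR, JAK1 and JAK2 and acts at gamma-activated sites. The targets include sensors and destroyers of foreign nucleic acid, and large GTPases that attack the compartments in which microbes live. In bone marrow, stem and progenitor cells and myeloid cells express part of this set without infection.

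Library totals were 60147266 to 68730322 counts for luciferase and SETBP1-D868N and 7083731 to 10359093 for DMSO and PF-9363, where in the latter a count of 0 allows up to 0.290 to 0.424 CPM (counts scaled to a common library total). The first used 500 ng of total RNA and a Watchmaker kit, and the second 100 ng and a commercial provider. Levels were therefore not compared between experiments. Transcripts of the mouse gene Setbp1 gave 5, 6 and 6 counts with luciferase and 23, 20 and 24 with SETBP1-D868N. They gave 0 to 2 counts per library in the second experiment, where all cells are described as carrying the mutant. In CPM this was 0.198 in DMSO 1, 0.0998 in DMSO 2 and 0 elsewhere. In the first experiment it was 0.0744 to 0.101 CPM with luciferase and 0.306 to 0.362 CPM with SETBP1-D868N. These few counts do not show the mutant in the second experiment and are no check of its labels. The reason was not tested. Libraries of the same group differed by more than counting noise, with a chi-square per degree of freedom of 2.21 or more in each pair. The labels do not say whether replicates came from separate animals or cultures, so p-values measure the spread between these libraries, which may be technical.

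Promoters of the list were searched for both elements, through which the 2 branches act. The RefSeq table of promoters (GRCm38.p6) covers 250 bases before to 50 after each start and held 45 promoters of 36 members. A core of the interferon-stimulated response element, GAAANNGAAA on either strand, was found in 23 of these (51.1%), against 3.44% of all 32851 promoters. TTCNNNGAA, the palindromic core of the gamma-activated site, was found in 13 (28.9%), against 8.30% of all. Among GTPase promoters 8 of 10 held the first and 5 of 10 the second, and among type I promoters 14 and 8 of 34. A match is a description of letters and not a bound site, and overlapping matches were counted once per promoter. The promoters below belong to the members with a response element core and the largest absolute log2 fold changes in either comparison, called or not. The core is in capitals. Ifit3 was not called with SETBP1-D868N and not tested with PF-9363. Members without an entry in the table of promoters, among them Usp18, Ifi204 and Parp14, could not be ranked. In Gbp3, Ifit1, Rsad2 and Ifit3 the core lies on the opposite strand, and in Gbp3 a pair of cores overlaps. The sequences lie at chr5:92348840-92349139 (minus strand), chr3:142559794-142560093 (plus), chr19:34640639-34640938 (plus), chr12:26456403-26456702 (minus) and chr19:34583279-34583578 (plus), in that order.
Cxcl10: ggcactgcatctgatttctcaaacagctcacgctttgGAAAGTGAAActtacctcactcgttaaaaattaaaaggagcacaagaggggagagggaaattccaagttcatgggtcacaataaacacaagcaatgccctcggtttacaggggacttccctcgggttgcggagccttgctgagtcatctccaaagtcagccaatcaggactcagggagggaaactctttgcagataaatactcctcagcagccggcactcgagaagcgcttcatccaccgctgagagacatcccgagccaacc
Gbp3: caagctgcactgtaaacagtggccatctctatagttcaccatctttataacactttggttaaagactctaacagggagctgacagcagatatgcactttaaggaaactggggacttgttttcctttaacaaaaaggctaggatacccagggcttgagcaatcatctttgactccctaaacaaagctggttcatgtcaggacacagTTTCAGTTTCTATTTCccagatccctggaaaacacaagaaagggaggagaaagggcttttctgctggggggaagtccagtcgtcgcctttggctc
Ifit1: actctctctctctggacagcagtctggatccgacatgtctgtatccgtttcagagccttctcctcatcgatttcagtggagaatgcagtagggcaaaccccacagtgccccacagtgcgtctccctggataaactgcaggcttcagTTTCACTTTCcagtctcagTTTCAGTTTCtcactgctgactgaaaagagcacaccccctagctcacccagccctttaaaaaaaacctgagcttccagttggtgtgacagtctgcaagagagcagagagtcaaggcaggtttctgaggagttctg
Rsad2: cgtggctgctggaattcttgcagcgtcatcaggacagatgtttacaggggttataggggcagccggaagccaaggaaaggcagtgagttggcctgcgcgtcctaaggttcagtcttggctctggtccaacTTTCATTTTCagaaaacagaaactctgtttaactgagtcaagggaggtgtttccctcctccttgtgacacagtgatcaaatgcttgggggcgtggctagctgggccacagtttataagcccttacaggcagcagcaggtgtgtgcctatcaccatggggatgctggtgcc
Ifit3: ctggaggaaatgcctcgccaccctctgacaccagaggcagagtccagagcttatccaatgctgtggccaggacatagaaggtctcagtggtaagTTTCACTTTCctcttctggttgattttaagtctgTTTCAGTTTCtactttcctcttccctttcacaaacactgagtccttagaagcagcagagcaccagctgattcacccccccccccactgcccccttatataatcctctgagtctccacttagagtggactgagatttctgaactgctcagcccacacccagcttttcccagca

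In 3 GTPase genes of chromosome 11, Igtp, Irgm2 and Tgtp1, a gamma-activated site core began 11 bases before a response element core. These windows were chosen after the matches were seen, and both cores are in capitals. They lie at chr11:58199496-58199546 (plus strand), chr11:58214887-58214937 (plus) and chr11:48992299-48992349 (minus). Igtp and Irgm2 shared 49 of 51 bases, Irgm2 and Tgtp1 36, and Igtp and Tgtp1 34.
Igtp: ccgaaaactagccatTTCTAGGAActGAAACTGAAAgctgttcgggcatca
Irgm2: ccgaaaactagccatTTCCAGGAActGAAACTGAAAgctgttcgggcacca
Tgtp1: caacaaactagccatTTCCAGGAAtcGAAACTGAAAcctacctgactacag

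Members differed widely in level when CPM was divided by the length of the exons of GENCODE M21 in kilobases. With luciferase, Ly6e stood at 260.0 CPM per kb, followed by Bst2 at 46.4, Lgals3bp at 38.3 and Samhd1 at 30.1. Ly6e, a surface protein anchored to the membrane by lipid, was also the highest with DMSO (107 CPM per kb) and PF-9363 (90.2 CPM per kb). Rsad2 stood at 1.42 CPM per kb with luciferase and Ifit1 at 1.32. The lowest member was the GTPase gene Iigp1, at 0.024 CPM per kb with luciferase and at 0 counts in all 8 libraries of the second experiment. All 49 symbols matched 1 gene model each. Exons of 10 members overlap another gene on their own strand, among them Igtp with Irgm2 and Ifi47 with Olfr56, and 10 overlap a gene on the opposite strand, among them Adar with Chrnb2 and Cxcl10 with Art3. The handling of strand and of shared reads is not given in the sources used here, so reads of such pairs cannot be told apart. Tgtp1, Oas1a, Ifi203, Ifi204 and the Gbp genes have similar neighbouring copies, and their split of reads is uncertain.

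With SETBP1-D868N, interferon-stimulated genes were mostly lower than with luciferase. Of 48 members tested (all but Iigp1), 29 were called lower at an edgeR adjusted p under 0.05, 2 higher and 17 neither way. Over all 15794 genes tested, 47.2% were called, 22.7% lower and 24.5% higher. The median log2 fold change was -0.49 over the members and 0.0043 over all genes. Groups did not overlap in 38 of 48 members, against 56.7% of all genes. Among type I targets 25 of 38 fell and 0 rose. Among the GTPases 4 of 9 tested fell and 2 rose. Scaling by library size alone gave 27 members lower and 3 higher, the third being Ly6e, while Xaf1 and Lgals3bp lost their calls. It raised the share of higher calls over all genes from 51.9% to 62.1%. In bulk RNA, fewer cells of a type and less RNA per cell cannot be told apart. Markers of monocytes, conventional dendritic cells and neutrophils were lower in the same libraries. In sum per library, 11 monocyte and macrophage markers went from 1620 to 1637 CPM with luciferase to 1254 to 1298 CPM with SETBP1-D868N (10 called lower), and 8 conventional dendritic cell markers from 447 to 485 CPM to 229 to 254 CPM (6 of 7 tested called lower). The 8 neutrophil markers, all called lower, went from 20750 to 21505 CPM to 11183 to 13649 CPM. The 8 stem and progenitor markers went from 5208 to 5530 CPM to 6895 to 6988 CPM (6 called higher, 2 lower). They were Kit, Cd34, Flt3, Gata2 and the granule protein genes Mpo, Elane, Prtn3 and Ctsg, which the sum does not separate. The 7 mast cell and basophil markers went from 4877 to 5042 CPM to 5459.6 to 5542 CPM (4 called higher, 3 lower). The 9 T and NK cell markers summed to 58.2 to 61.9 CPM and 78.8 to 84.4 CPM (1 of 4 tested called higher, 1 lower). Markers of plasmacytoid dendritic cells, a main source of type I interferon, summed to 35.5 to 38.8 CPM and 40.8 to 46.7 CPM (2 of 6 tested called higher, 1 lower). The part of these cell types in the lower interferon-stimulated genes was not tested.

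**Figure D1:**
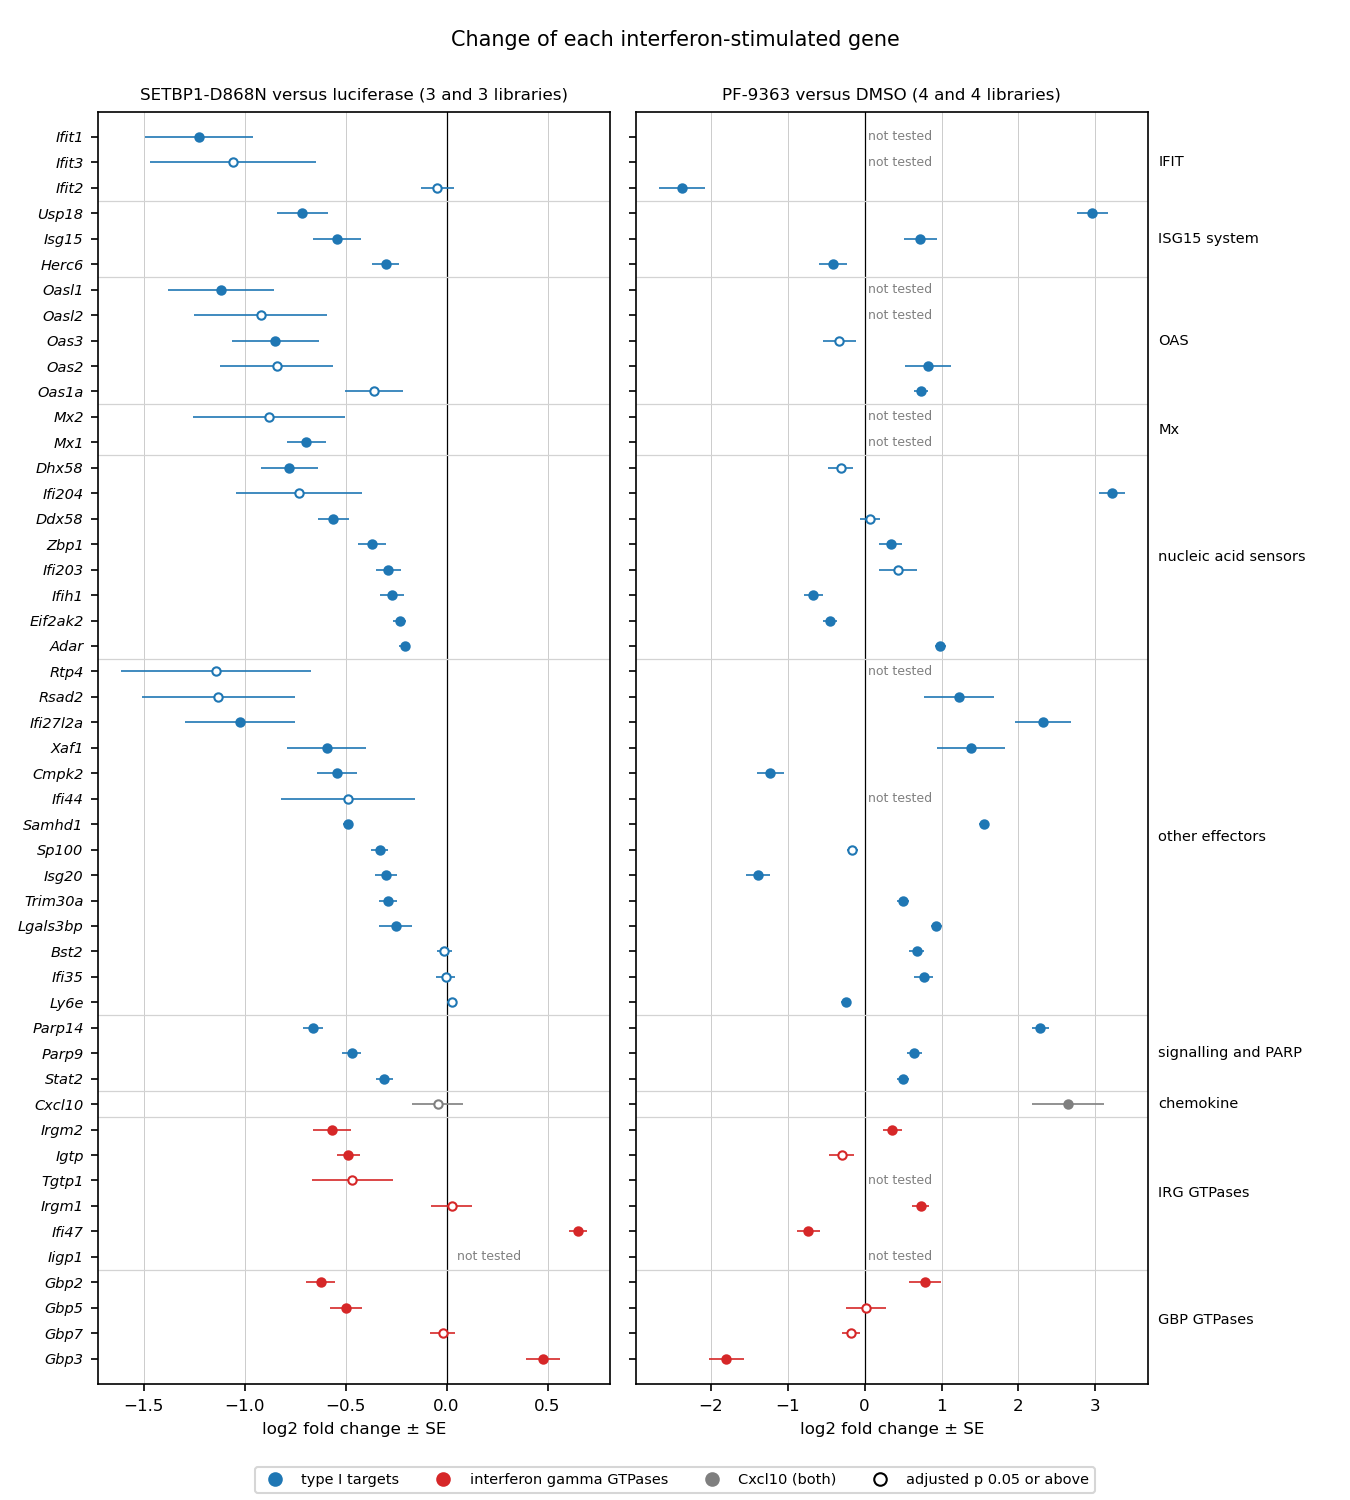
Log2 fold change (horizontal axis) with its standard error for each of the 49 members, with SETBP1-D868N versus luciferase on the left and PF-9363 versus DMSO on the right. Colours mark the branch, filled points have an edgeR adjusted p under 0.05, and on the left filled points lie below 0 except for Ifi47 and Gbp3.

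Signalling genes upstream of the list were measured from a separate list. Of 21 interferon genes 16, Ifng included, had 0 counts in all 14 libraries, and none passed the expression filter. Ifnb1, the gene of interferon beta, had 0, 4 and 0 counts with luciferase and 5, 4 and 0 with SETBP1-D868N. No interferon gene exceeded 5 counts in any library. Receptor genes were called lower in 5 of 6 cases. Ifnlr1, the receptor chain specific to interferon lambda, fell by 0.84 on the log2 scale and Ifnar1, Ifngr1, Ifngr2 and Il10rb by 0.17, 0.17, 0.23 and 0.17. Ifnar2 was not called. All 3 kinase genes fell, with Jak2 at a log2 fold change of -0.55. Among transcription factor genes, Irf9 fell by 0.37 (edgeR adjusted p = 0.00458) and Irf7, the amplifier of type I interferon production, by 0.41 (edgeR adjusted p = 6.25e-06). Of 7 inhibitor genes 4 fell, Socs3 by 0.63. Of 11 upstream sensors and adaptors 5 fell, with Tlr9 at -0.80, and Cgas, the DNA sensor cGAS, rose by 0.15.

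The 3 IFIT genes, whose products bind foreign RNA, did not move as a block. Ifit1 had 2.46, 4.10 and 3.93 CPM in luciferase libraries 1 to 3 and 1.42, 1.96 and 1.10 CPM in SETBP1-D868N libraries 1 to 3. All 3 SETBP1-D868N libraries lay below the lowest luciferase library, and library 3 was the lowest. Ifit1 had a log2 fold change of -1.23 ± 0.27 SE with edgeR adjusted p = 0.00728, a fold of 0.428. Its neighbour Ifit2 had 9.54, 10.7 and 11.1 CPM with luciferase and 9.78, 11.3 and 9.34 CPM with SETBP1-D868N, and these values overlapped (log2 fold change of -0.05 ± 0.08 SE with edgeR adjusted p = 0.684). Ifit3 was at most 1.03 CPM in any library, with overlapping groups and a log2 fold change of -1.06 ± 0.41 SE with edgeR adjusted p = 0.0659. Without SETBP1-D868N 2, the highest of its group, Ifit3 was called lower (edgeR adjusted p = 0.00268).

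In the ISG15 system all 3 members fell. Usp18, the protease that takes ISG15 off proteins and restrains the type I receptor, had 11.7, 13.2 and 14.5 CPM with luciferase and 8.52, 8.91 and 6.54 CPM with SETBP1-D868N. The groups did not overlap (log2 fold change of -0.71 ± 0.13 SE with edgeR adjusted p = 0.00255). Isg15, the ubiquitin-like modifier itself, fell by 0.54 on the log2 scale and Herc6, its ligase in the mouse, by 0.30.

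OAS genes make the second messenger that activates RNase L, or are relatives of those that do. All 5 had separate groups, and 2 were called. Oasl1 had 1.46, 2.29 and 2.38 CPM with luciferase and 0.945, 1.24 and 0.633 CPM with SETBP1-D868N. Its highest SETBP1-D868N library lay below its lowest luciferase library, luciferase 1 (log2 fold change of -1.12 ± 0.26 SE with edgeR adjusted p = 0.00692). Oas3 had 28.9, 35.2 and 37.4 CPM against 20.7, 21.8 and 13.9 CPM, again without overlap (log2 fold change of -0.85 ± 0.22 SE with edgeR adjusted p = 0.0339). This call was lost when luciferase 2 or 3 or SETBP1-D868N 1 or 2 was left out, with edgeR adjusted p up to 0.0967. Oas2, Oasl2 and Oas1a had log2 fold changes of -0.84, -0.92 and -0.36 that were not called. Without SETBP1-D868N 3, the lowest library of each, Oas2 and Oasl2 were called, with edgeR adjusted p of 0.0179 and 0.0356, and Oas1a was called without luciferase 1.

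Mx1, a GTPase that blocks influenza viruses in the nucleus, had 6.22, 6.04 and 6.08 CPM with luciferase and 3.52, 4.30 and 3.53 CPM with SETBP1-D868N. Luciferase libraries lay close together and above all SETBP1-D868N libraries (log2 fold change of -0.69 ± 0.10 SE with edgeR adjusted p = 9.28e-05). Mx2, a polymorphic pseudogene in the annotation, stayed under 1 CPM with overlapping groups, and was called lower without SETBP1-D868N 2, without the filter and by limma-voom.

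Sensors of nucleic acid fell in 7 of 8 cases. Dhx58, the gene of the RNA sensor LGP2, had 14.4, 17.9 and 17.3 CPM with luciferase and 11.1, 9.92 and 7.91 CPM with SETBP1-D868N. The groups were apart (log2 fold change of -0.78 ± 0.14 SE with edgeR adjusted p = 0.00491). Ddx58, the gene of RIG-I, and Ifih1, the gene of MDA5, fell by 0.56 and 0.27 on the log2 scale, and the Z-nucleic acid sensor gene Zbp1 by 0.37. Adar, which edits double-stranded RNA, had 102, 102 and 104 CPM against 88.9, 89.4 and 87.9 CPM. Its fall was small, but libraries of a group lay close together (log2 fold change of -0.21 ± 0.03 SE with edgeR adjusted p = 5.06e-05). The kinase gene Eif2ak2 (PKR) fell by 0.23 and Ifi203 by 0.29. Ifi204, a DNA-binding relative of Ifi203, had groups that did not overlap but was not called (log2 fold change of -0.73 ± 0.31 SE with edgeR adjusted p = 0.123), except without robust estimation.

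Among the 14 other effectors 8 fell and 0 rose. Ifi27l2a, a small membrane protein gene, had 9.41, 10.5 and 11.1 CPM with luciferase and 5.91, 6.21 and 3.12 CPM with SETBP1-D868N. SETBP1-D868N 3 had the lowest value (log2 fold change of -1.02 ± 0.27 SE with edgeR adjusted p = 0.0329), and the call was lost without any of the luciferase libraries or without SETBP1-D868N 1, with edgeR adjusted p up to 0.0934. Rsad2 (viperin) and Rtp4 had larger fold changes that were not called, with log2 values of -1.13 and -1.14. In SETBP1-D868N libraries 1 to 3 Rsad2 had 3.17, 3.82 and 1.45 CPM and Rtp4 4.02, 4.72 and 1.45 CPM, against 4.90, 6.54 and 7.04 CPM and 5.78, 7.91 and 8.81 CPM with luciferase. Both were called without SETBP1-D868N 3 (edgeR adjusted p = 0.00361 and 0.0197). Samhd1, which breaks down the building blocks of DNA, had 270.2, 277 and 278 CPM against 195, 199 and 194 CPM. It had the lowest p of the members in this comparison (log2 fold change of -0.49 ± 0.03 SE with edgeR adjusted p = 4.83e-08). Ly6e had 977, 992 and 983 CPM and 1004, 999.7 and 999.8 CPM, with groups that did not overlap but a log2 fold change of 0.03 ± 0.02 SE with edgeR adjusted p = 0.375. Bst2 (tetherin) and Ifi35 had log2 fold changes of -0.01 and -0.0051, with overlapping groups. Xaf1 and Lgals3bp fell by 0.59 and 0.25. The call of Xaf1 was lost without luciferase 2 or 3 or SETBP1-D868N 1 or 3, and that of Lgals3bp without any luciferase library or SETBP1-D868N 1, with edgeR adjusted p up to 0.112 and 0.117. Cmpk2, Sp100, Isg20 and Trim30a fell by 0.54, 0.33, 0.30 and 0.29, and Ifi44, at 0.253 to 0.568 CPM with luciferase, was not called.

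Signalling members fell in all 3 cases. Parp14, an ADP-ribosyltransferase, had 58.5, 54.1 and 54.5 CPM with luciferase and 32.7, 36.6 and 36.5 CPM with SETBP1-D868N. The lowest luciferase library lay far above the highest SETBP1-D868N library (log2 fold change of -0.66 ± 0.05 SE with edgeR adjusted p = 1.01e-06). Stat2 had 73.5, 77.6 and 77.4 CPM against 63.3, 63.7 and 57.5 CPM, also apart (log2 fold change of -0.31 ± 0.04 SE with edgeR adjusted p = 8.45e-05). Parp9 fell by 0.47. Cxcl10, which draws activated T cells, had 1.92, 1.83 and 2.02 CPM against 1.81, 2.03 and 1.75 CPM, and these overlapped (log2 fold change of -0.04 ± 0.13 SE with edgeR adjusted p = 0.804).

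GTPases of the interferon gamma branch moved both ways with SETBP1-D868N. Ifi47, of the immunity-related GTPase family, had 25.1, 25.5 and 25.6 CPM with luciferase and 42.6, 38.6 and 38.4 CPM with SETBP1-D868N. All SETBP1-D868N libraries were higher (log2 fold change of 0.65 ± 0.05 SE with edgeR adjusted p = 4.82e-07). Gbp3, a guanylate-binding protein gene, was also higher, with 5.21, 5.61 and 5.63 CPM and 8.17, 7.86 and 6.89 CPM in groups that did not overlap (log2 fold change of 0.48 ± 0.08 SE with edgeR adjusted p = 5.22e-04). Its neighbour Gbp2 went the other way, from 14.4, 14.7 and 14.7 CPM to 9.37, 10.5 and 8.53 CPM without overlap (log2 fold change of -0.62 ± 0.07 SE with edgeR adjusted p = 1.85e-05). Gbp5 fell by 0.50, while Gbp7 had 20.0, 21.4 and 22.7 CPM and 20.2, 22.9 and 20.1 CPM, which overlapped (log2 fold change of -0.02 ± 0.06 SE with edgeR adjusted p = 0.825). These 4 Gbp genes lie in 1 cluster on chromosome 3, from 142493978 to 142638008. Irgm2 and Igtp fell by 0.57 and 0.49, Irgm1 had overlapping groups and a log2 fold change of 0.03, and Tgtp1 stayed under 1 CPM with a log2 fold change of -0.47 that was called only when SETBP1-D868N 3 was left out. The median over the 9 GTPases was -0.47. It was -0.18 without SETBP1-D868N 1, -0.22 without SETBP1-D868N 3, and -0.31 when the filter was dropped. In each of these fits Iigp1 passed and entered the median as well. The part of Iigp1 in these shifts was not separated from that of the setting.

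Libraries within a group differed by size in the type I targets. Relative to the luciferase mean, the median log2 difference of the 38 targets was -0.12, 0.03 and 0.06 in luciferase 1 to 3 and -0.44, -0.32 and -0.59 in SETBP1-D868N 1 to 3. SETBP1-D868N 3 was the lowest of the 6 libraries in 31 of 38 targets and SETBP1-D868N 2 the highest of its group in 33. Luciferase 1 was the lowest of its group in 33. The GTPase medians were -0.41, -0.27 and -0.20 in SETBP1-D868N 1 to 3, where library 3 had the highest median although it was the lowest of its group in 7 of 9 GTPases. Leaving out SETBP1-D868N 3 raised the members called from 31 to 35 and moved the type I median from -0.51 to -0.44. In that library the summed neutrophil markers were also the lowest, at 11183 CPM against 13649 and 12605 CPM in SETBP1-D868N 1 and 2, and their part was not tested.

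**Figure D2:**
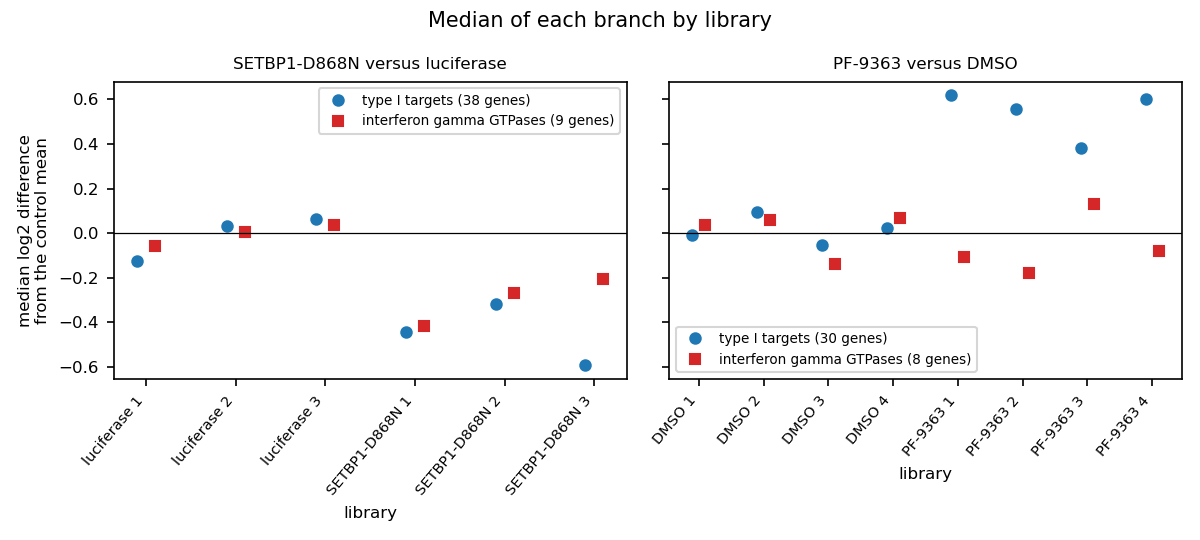
Median log2 difference from the mean of the control group for type I targets (circles) and interferon gamma GTPases (squares) in each library of both experiments. With SETBP1-D868N both medians lie below 0 in all 3 libraries, while with PF-9363 the type I medians lie at 0.38 to 0.62 and the GTPase medians at -0.18 to 0.13.

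With PF-9363, most members that passed the filter were higher than with DMSO. Of 39 members that passed the filter, 22 were called higher, 9 lower and 8 neither way. Over all 13456 genes tested 76.0% were called, 36.6% higher and 39.4% lower, so a call as such was common in this experiment. The median log2 fold change was 0.50 over the members and -0.04 over all genes. Groups did not overlap in 29 of 39 members, against 70.3% of all genes. Type I targets rose in 18 and fell in 7 of 30 tested, with a median of 0.57. GTPases rose in 3 and fell in 2 of 8 tested, with a median of -0.08. Scaling by library size alone shifted the median of all genes by -0.23 and cut the share of higher calls over all genes from 48.1% to 36.2%. It gave 18 members higher and 14 lower. Oas2, Rsad2, Zbp1 and Irgm2 then lost their calls, and Oas3, Dhx58, Sp100, Igtp and Gbp7 were called lower. Markers of other cell types moved as well. In sum per library, 11 monocyte and macrophage markers went from 2376 to 2549 CPM with DMSO to 3581 to 4062 CPM with PF-9363 (8 called higher, 2 lower), and 8 conventional dendritic cell markers from 40.0 to 49.8 CPM to 188 to 238 CPM (4 of 4 tested called higher). The same 8 stem and progenitor markers, Mpo, Elane, Prtn3 and Ctsg included, went from 5470 to 6503 CPM to 813 to 901 CPM (2 called higher, 5 lower). The 7 mast cell and basophil markers went from 1072 to 1363 CPM to 3998 to 4845 CPM (6 called higher). The 8 neutrophil markers stood at 13867 to 17004 CPM and 16592 to 18000.0 CPM (3 called higher, 1 lower). Plasmacytoid dendritic cell markers summed to 28.4 to 31.6 CPM and 16.3 to 26.7 CPM (1 of 2 tested called higher, 1 lower). T and NK cell markers went from 35.8 to 48.2 CPM to 2.17 to 3.50 CPM and B cell markers from 5.89 to 10.2 CPM to 0.309 to 1.52 CPM (in each list 1 gene was tested, and it was called lower). Megakaryocyte markers went from 42.6 to 54.1 CPM to 212 to 232 CPM (2 of 3 tested called higher, 1 lower). Ebf1 and Ms4a1 of B cells and Cd3e, Cd3g, Cd8a and Klrb1c of T and NK cells were at 0 in all 8 libraries. The part of these cell types in the interferon-stimulated genes was not tested.

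The 10 members below the filter were Ifit1, Ifit3, Oasl1, Oasl2, Mx1, Mx2, Rtp4, Ifi44, Iigp1 and Tgtp1. Mx2, Ifi44 and Iigp1 had 0 counts in all 8 libraries. Oasl1 had 1, 2, 0 and 0 counts in DMSO 1 to 4 and 12, 7, 4 and 15 counts in PF-9363 1 to 4, and Rtp4 2, 0, 4 and 3 and 17, 12, 6 and 7 counts. In both genes all PF-9363 libraries were higher. When the filter was dropped, both were called higher. Log2 fold changes were then 3.71 for Oasl1 (edgeR adjusted p = 2.15e-05) and 2.46 for Rtp4 (edgeR adjusted p = 0.000463). In that fit Ifit1, Ifit3, Oasl2, Mx1 and Tgtp1 were not called. Mx1 had 5, 3, 8 and 6 and 9, 0, 1 and 5 counts, with overlap. Ifit1, Ifit3, Oasl2 and Tgtp1 also overlapped.

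Upstream genes mostly rose with PF-9363. No interferon gene passed the filter, and Ifnb1 and Ifng had 0 counts in all 8 libraries. Receptor genes rose in 5 of 6 cases, among them Ifnar1 by 0.98, Ifnar2 by 1.02 and Ifngr2 by 1.82 on the log2 scale, with Il10rb and Ifnlr1 at 1.75 and 2.24. Ifngr1, the ligand-binding chain of the interferon gamma receptor, fell by 1.08 (edgeR adjusted p = 4.02e-16). Of 3 kinase genes, Jak1 and Jak2 rose by 1.04 and 1.52, and Tyk2 was not called. Among transcription factor genes, log2 fold changes were 1.50 for Irf9, 1.51 for Irf7, 1.05 for Irf1, 1.04 for Irf8 and 0.96 for Irf2, all called higher. Inhibitor genes rose in 4 and fell in 2 of 7 cases, with Socs1 at 1.60, Socs3 at 0.79 and Ptpn6 at 0.74. Upstream sensors and adaptors rose in 7 of 10 tested, among them Tlr7 (2.31), Tlr9 (1.67), Myd88 (1.42), Sting1 (0.95) and Tbk1 (0.50), and Cgas fell by 0.70.

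Among IFIT genes Ifit2 alone was tested. It had 5.85, 6.29, 6.84 and 6.62 CPM in DMSO 1 to 4 and 2.16, 1.42, 0.467 and 0.651 CPM in PF-9363 1 to 4. All PF-9363 libraries were far below the DMSO libraries, and libraries 3 and 4 were the lowest (log2 fold change of -2.37 ± 0.30 SE with edgeR adjusted p = 3.89e-08). Of the members that fell, Ifit2 moved most.

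Usp18 had 1.29, 1.90, 1.50 and 1.81 CPM with DMSO and 12.5, 11.7, 12.0 and 14.6 CPM with PF-9363. All PF-9363 libraries lay far above all DMSO libraries (log2 fold change of 2.96 ± 0.20 SE with edgeR adjusted p = 1.17e-13). Isg15 rose by 0.73, with PF-9363 3 inside the DMSO range at 4.36 CPM, while Herc6 was lower by 0.41 with overlapping groups and lost its call without DMSO 2, 3 or 4 or PF-9363 1, 3 or 4 (edgeR adjusted p up to 0.133). 

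Of the 3 OAS genes tested, 2 rose. Oas1a had 27.2, 23.3, 24.0 and 23.8 CPM with DMSO and 44.2, 40.9, 39.4 and 38.6 CPM with PF-9363, without overlap (log2 fold change of 0.73 ± 0.09 SE with edgeR adjusted p = 5.28e-08). Oas2 had 2.18, 2.00, 1.22 and 1.72 CPM against 2.99, 4.12, 2.65 and 2.82 CPM, also apart (log2 fold change of 0.82 ± 0.30 SE with edgeR adjusted p = 0.0143). Leaving out DMSO 3 or PF-9363 2 removed the call, with edgeR adjusted p up to 0.0636. Oas3 overlapped between groups and was not called.

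Ifi204, of the nucleic acid sensors, had the largest rise of the members that passed the filter. It had 2.18, 2.99, 2.15 and 3.45 CPM with DMSO and 24.7, 20.6, 27.2 and 28.0 CPM with PF-9363. The groups were far apart (log2 fold change of 3.21 ± 0.17 SE with edgeR adjusted p = 2.55e-16). Adar went from 53.2, 56.5, 50.6 and 46.9 CPM to 99.6, 101, 103 and 105 CPM, with every treated library higher (log2 fold change of 0.98 ± 0.07 SE with edgeR adjusted p = 5.22e-13). Zbp1 was called higher by 0.34 and lost its call without DMSO 2 or 4 or PF-9363 1, 3 or 4, with edgeR adjusted p up to 0.126. The RNA sensor gene Ifih1 and the kinase gene Eif2ak2 fell by 0.66 and 0.45, while Ddx58, Dhx58 and Ifi203 were not called, at 0.06, -0.31 and 0.44. Dhx58 was called lower without PF-9363 1, and Ifi203 higher without DMSO 2.

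Other effectors rose in 8 and fell in 3 of 12 cases. Ifi27l2a had 1.19, 0.499, 0.468 and 0.907 CPM with DMSO and 2.47, 5.93, 3.27 and 3.90 CPM with PF-9363, without overlap (log2 fold change of 2.32 ± 0.37 SE with edgeR adjusted p = 1.96e-06). Samhd1 had 152, 173, 144 and 177 CPM against 477, 445, 486 and 480.3 CPM, close together within each group (log2 fold change of 1.55 ± 0.07 SE with edgeR adjusted p = 3.59e-18). Xaf1, Rsad2, Lgals3bp, Ifi35, Bst2 and Trim30a were called higher by 1.38, 1.22, 0.93, 0.77, 0.68 and 0.50, and Rsad2 overlapped between groups and lost its call without DMSO 1 or PF-9363 1 or 4 (edgeR adjusted p up to 0.0819). Xaf1 was near the limit of detection, with 12, 2, 4 and 10 counts in DMSO 1 to 4 and 12, 16, 13 and 17 in PF-9363 1 to 4. Isg20, an exonuclease that degrades RNA, went the other way. It had 13.0, 15.7, 18.7 and 15.9 CPM with DMSO and 6.70, 5.16, 5.14 and 6.94 CPM with PF-9363, with all treated libraries lower (log2 fold change of -1.38 ± 0.16 SE with edgeR adjusted p = 6.34e-09). Cmpk2, a nucleotide kinase gene next to Rsad2 on chromosome 12, had 9.92, 9.78, 9.93 and 10.4 CPM against 4.53, 4.90, 3.58 and 4.01 CPM, likewise lower (log2 fold change of -1.22 ± 0.17 SE with edgeR adjusted p = 2.96e-07). Ly6e had 409.9, 382, 399.7 and 428 CPM and 360.1, 330.1, 329.8 and 345 CPM, a small fall without overlap (log2 fold change of -0.25 ± 0.06 SE with edgeR adjusted p = 4.35e-04). Sp100 was not called, at -0.16, but was called lower without DMSO 3 or PF-9363 1 or 2.

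Parp14 had 12.7, 20.2, 16.4 and 15.6 CPM with DMSO and 88.5, 71.9, 72.8 and 81.7 CPM with PF-9363. All treated libraries were far above the controls (log2 fold change of 2.28 ± 0.11 SE with edgeR adjusted p = 9.37e-16). Stat2 had 53.2, 57.8, 46.7 and 52.7 CPM against 81.6, 77.6, 68.3 and 69.2 CPM, without overlap (log2 fold change of 0.50 ± 0.08 SE with edgeR adjusted p = 2.77e-06), and Parp9 rose by 0.65. Cxcl10 was near the limit of detection with DMSO, with 0, 4, 7 and 4 counts in DMSO 1 to 4 and 19, 18, 18 and 21 counts in PF-9363 1 to 4. All PF-9363 libraries were higher, at 1.96, 2.32, 2.80 and 2.28 CPM (log2 fold change of 2.65 ± 0.47 SE with edgeR adjusted p = 9.51e-06).

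**Figure D3:**
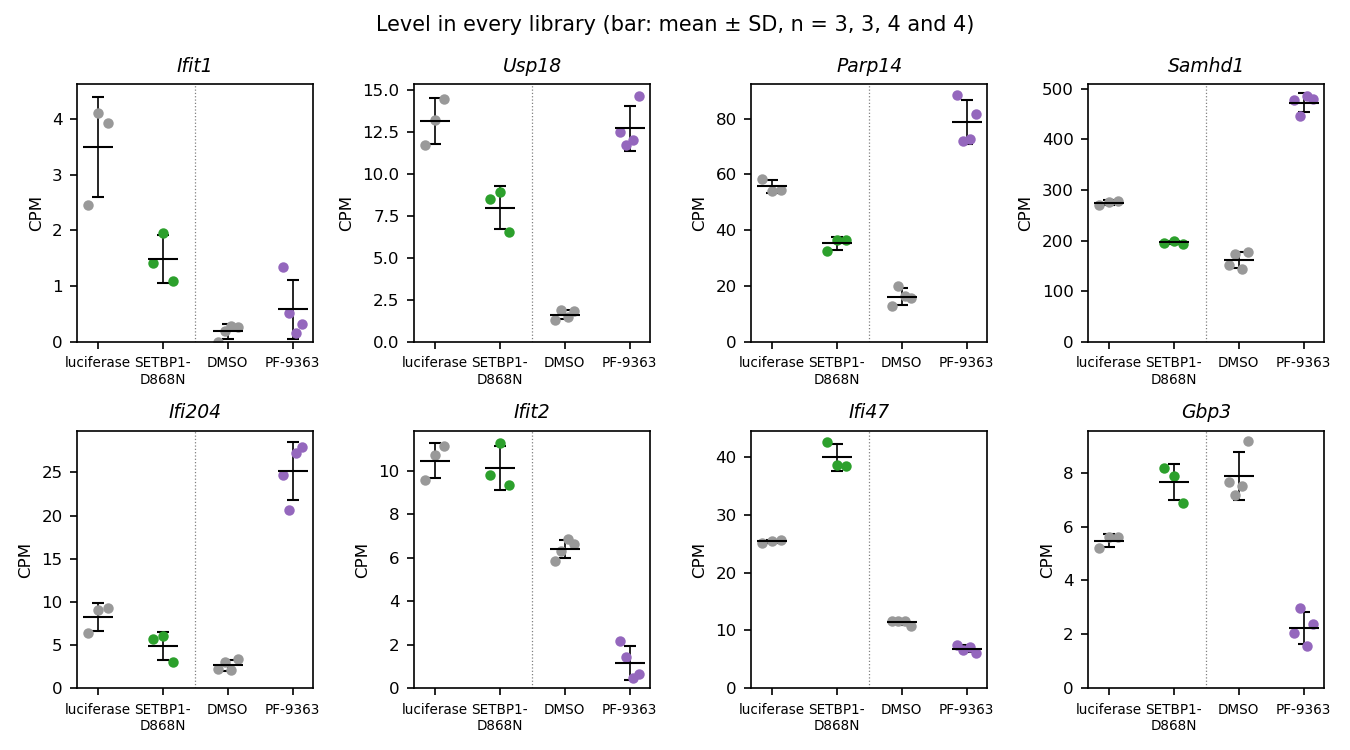
CPM in each library (points) for 8 members in the 4 groups, with the group mean and SD as bars and a separate vertical axis for each gene. Usp18, Parp14, Samhd1 and Ifi204 are higher in all PF-9363 libraries than in any DMSO library, and Ifit2, Ifi47 and Gbp3 are lower.

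Within the GTPases the directions were again mixed. Gbp3 had 7.64, 7.18, 7.49 and 9.16 CPM with DMSO and 2.06, 2.96, 1.56 and 2.39 CPM with PF-9363. Its highest treated library was under the lowest control library (log2 fold change of -1.80 ± 0.22 SE with edgeR adjusted p = 3.31e-08). Gbp2 rose from 4.46, 4.99, 3.28 and 5.90 CPM to 6.18, 8.38, 9.96 and 8.03 CPM, without overlap (log2 fold change of 0.79 ± 0.20 SE with edgeR adjusted p = 0.00102). Gbp7 had 23.7, 24.6, 20.2 and 24.1 CPM and 21.6, 16.9, 24.9 and 19.2 CPM, which overlapped (log2 fold change of -0.17 ± 0.12 SE with edgeR adjusted p = 0.19), and Gbp5 had a log2 fold change of 0.02. Ifi47 had 11.7, 11.6, 11.6 and 10.8 CPM against 7.42, 6.70, 7.16 and 6.18 CPM, with all treated libraries lower (log2 fold change of -0.73 ± 0.15 SE with edgeR adjusted p = 7.34e-05). Irgm1 had 16.8, 20.8, 18.9 and 23.8 CPM against 33.4, 32.5, 32.7 and 34.4 CPM, with all treated libraries higher (log2 fold change of 0.73 ± 0.11 SE with edgeR adjusted p = 6.02e-07). Irgm2 rose by 0.36 and lost its call without PF-9363 1 (edgeR adjusted p = 0.104), and Igtp was not called, at -0.30, but was called lower without PF-9363 2 and with scaling by library size alone. The GTPase median of -0.08 became 0.04 without PF-9363 2, -0.18 without DMSO 3 and -0.31 with scaling by library size alone. Without the filter, when Tgtp1 entered, it was -0.19. The difference between the branches was not tested.

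**Figure D4:**
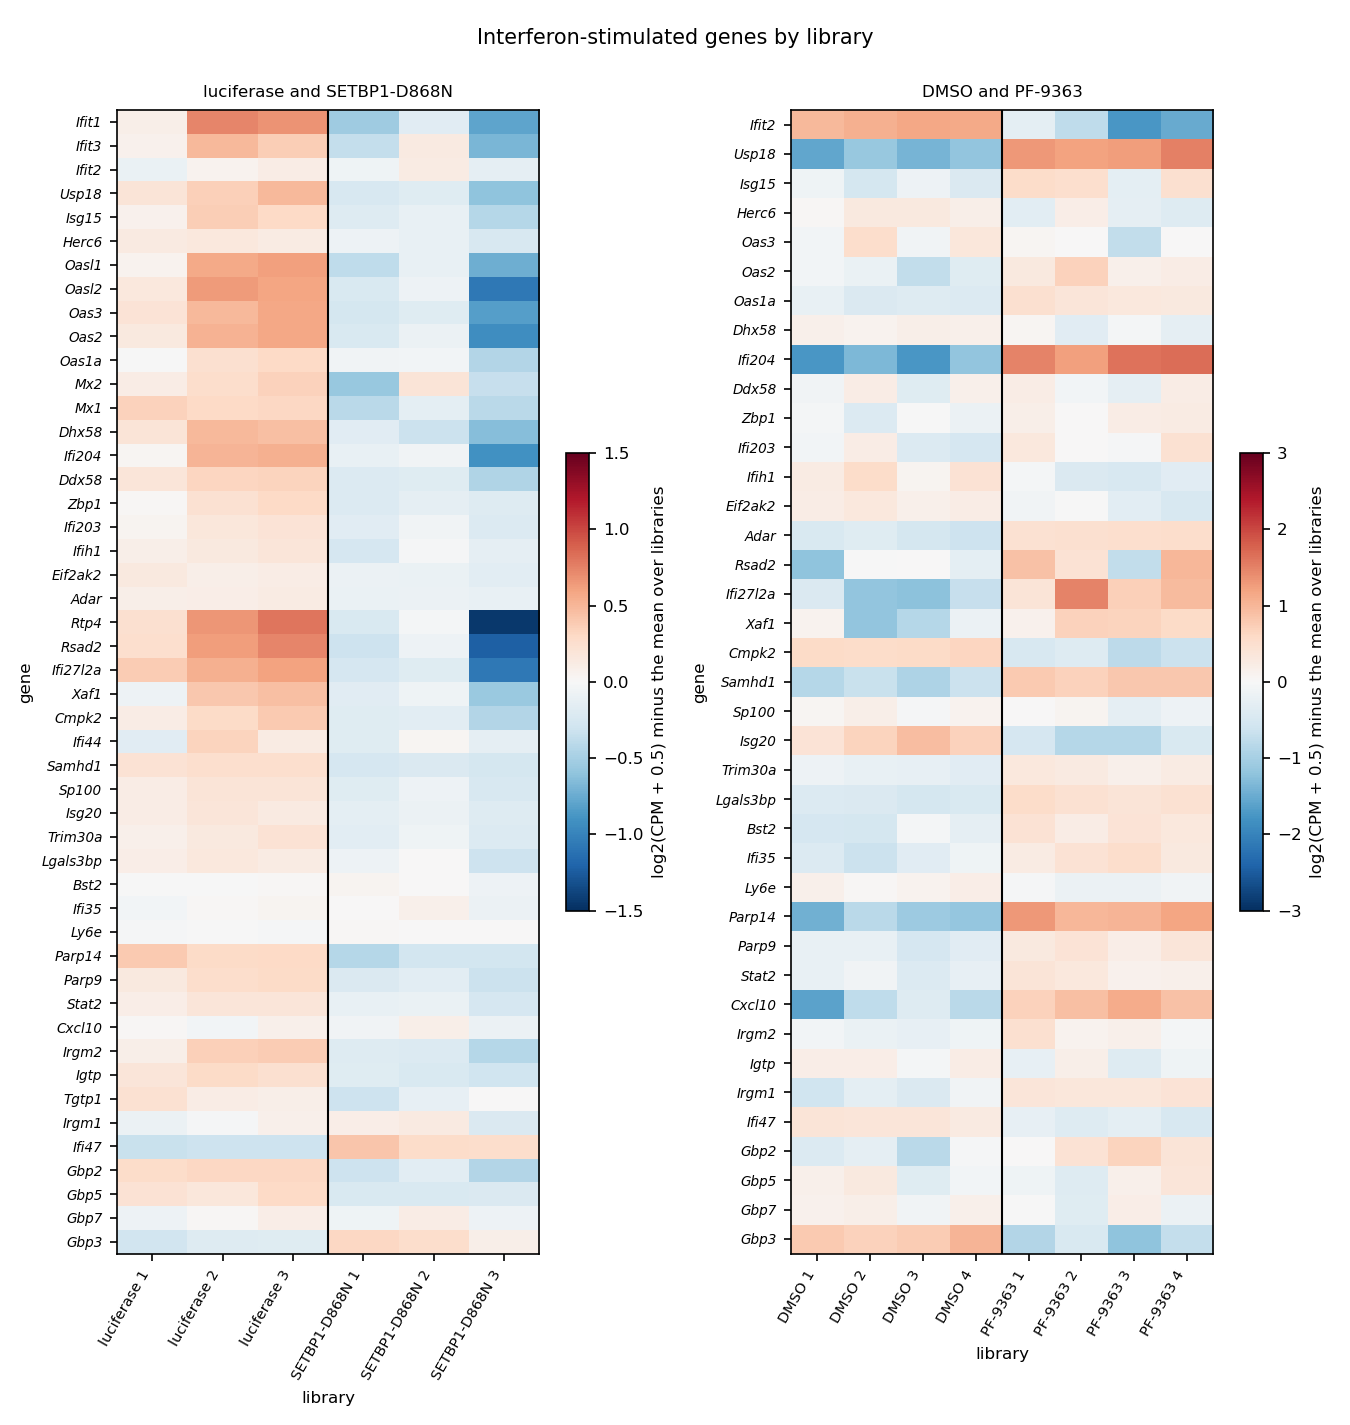
Log2(CPM + 0.5) of each tested member minus its mean over the libraries of the same experiment (colour), with genes in rows and libraries in columns, for the first experiment on the left and the second on the right. SETBP1-D868N 3 is the darkest blue column on the left, and on the right Usp18, Ifi204 and Parp14 run against Ifit2, Isg20 and Gbp3.

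The 2 comparisons share no library. Of 39 members tested in both, 16 (41.0%) were called in opposite directions and 5 (12.8%) in the same direction, against 34.9% and 9.05% of the 12376 genes tested in both. Lower with SETBP1-D868N and higher with PF-9363 were 14 members (35.9%), against 16.8% of all genes. These were Isg15, Usp18, Zbp1, Trim30a, Xaf1, Parp9, Parp14, Stat2, Samhd1, Lgals3bp, Adar and Ifi27l2a among type I targets and Irgm2 and Gbp2 among the GTPases. Leaving out certain single libraries ended the calls of Xaf1, Lgals3bp and Ifi27l2a with SETBP1-D868N and of Zbp1 and Irgm2 with PF-9363. Scaling by library size alone ended the same calls, except that of Ifi27l2a. The largest moves in opposite directions were those of Ifi27l2a (log2 fold changes of -1.02 and 2.32), Usp18 (-0.71 and 2.96), Parp14 (-0.66 and 2.28), Ifi47 (0.65 and -0.73) and Gbp2 (-0.62 and 0.79), ranked by the smaller of the pair. Ifi47 and Gbp3 (0.48 and -1.80) were the members that went from higher to lower. Isg20, Ifih1, Herc6, Cmpk2 and Eif2ak2 were called lower in both comparisons.

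**Figure D5:**
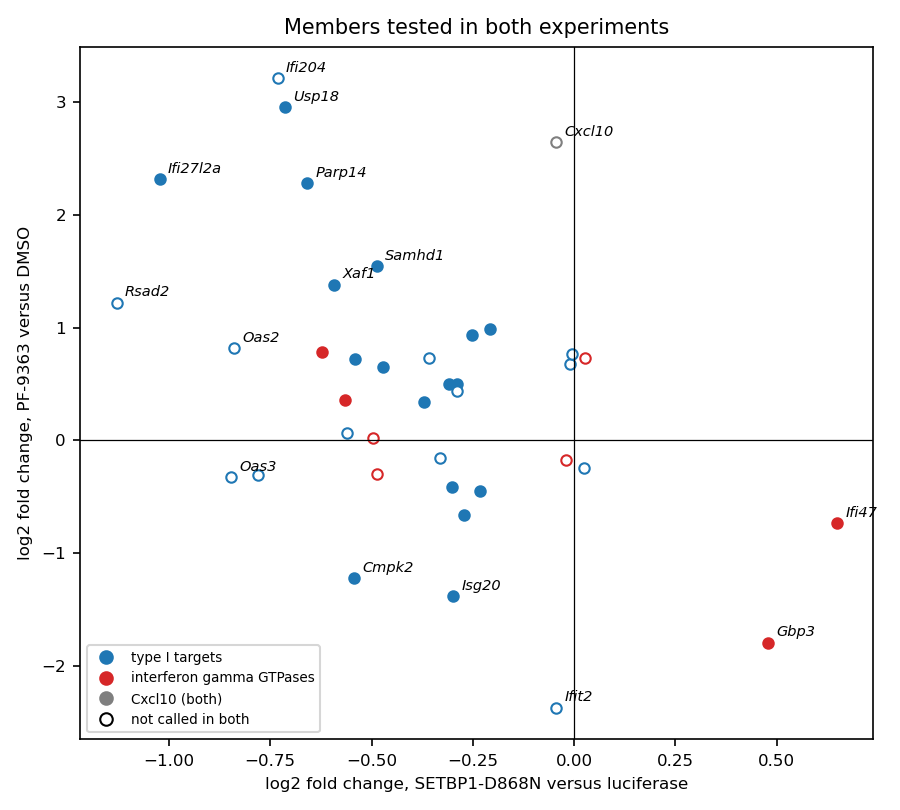
Log2 fold change with SETBP1-D868N versus luciferase (horizontal axis) against that with PF-9363 versus DMSO (vertical axis) for the 39 members tested in both experiments, with filled points called in both. Ifi47 and Gbp3 are the filled points in the lower right, and Isg20 and Cmpk2 are the lowest filled points on the left.

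Calls were also counted by promoter. The 22 members with a response element core had 13 calls lower and 1 higher with SETBP1-D868N (median -0.41), and 10 higher and 3 lower of 19 tested with PF-9363 (median 0.44). The 14 members whose promoters held no such core had 9 lower and 1 higher (median -0.32), and 5 higher and 5 lower of 11 tested (median -0.16). Among type I targets alone the medians were -0.36 and 0.50 with a core and -0.33 and 0.30 without it. Of the promoters printed above, those of Cxcl10 and Rsad2 belong to genes that rose with PF-9363 and that of Gbp3 to a gene that fell. The promoter of Ifi47 held neither core in its window, and among the promoters of Ifit2 and Isg20 a gamma-activated site core alone was found.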

How the data were processed

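Messenger RNA of mouse Lin- bone marrow cells was sequenced in 14 libraries. Raw counts per gene symbol were deposited by the authors in a table for each experiment, per the labels. STAR and DESeq2 and the genome builds GRCm38 and mm10 are named, without roles, in the submitters' processing notes; the counting program, annotation, strand handling and filters are not given in the sources used here. Columns were assigned to libraries by their names, and 0 columns were unmapped. The members, the signalling genes and the cell type markers were chosen with earlier results of these data known.

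Each experiment was fitted alone in R 4.3.3 with edgeR 4.0.16. Genes were kept by filterByExpr (minimum count 10, minimum total 15), scaled by TMM, and tested with the robust quasi-likelihood test without covariates. P-values were adjusted by Benjamini and Hochberg over all genes tested, and values under 0.05 counted as calls. CPM values are counts scaled to a common library total with TMM factors, and standard errors were derived from the fold change and its F statistic. The scripts were tested on simulated counts. Limits at 0 (3 counts of the library) cover counting error only.

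Values of each library are printed, per role and comparison, for the called member with the largest change and the member of highest mean CPM, for up to 5 members called in opposite directions, and for up to 4 called against the majority. Samhd1, Rsad2 and Rtp4 were added after their values were seen. Signalling genes were named where called with a log2 change of at least 0.5, and Irf9, Irf7 and the interferon genes whatever they showed; the other receptors and Cgas were added after their values were seen. Some genes of these lists are not reported here. Alternatives were RLE size factors, library size alone, other filters, DESeq2 1.42.0, limma-voom (limma 3.58.1), no robust estimation, a replicate block and leaving out each library. Promoters were searched in Python 3.11.15.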

Additional observations from a re-analysis of the deposited data

Results flagged for a closer look

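Values of 1 library stood apart from the other 3 of its group in 6 of 78 groups examined in the second experiment (39 members with DMSO and with PF-9363), by the gap to the nearest library over the range of the group. Chance gives this in about 1 of 20 groups, and groups of 3 libraries, as in the first experiment, were not examined. Among DMSO libraries, Oas1a was highest in DMSO 1 (27.2 CPM, next 24.0 CPM), Ifi47 was lowest in DMSO 4 (10.8 CPM, next 11.6 CPM) and Igtp was lowest in DMSO 3 (7.77 CPM, next 9.38 CPM). Among PF-9363 libraries, Isg15 and Oas3 were lowest in PF-9363 3, at 4.36 CPM (next 7.81 CPM) and 3.27 CPM (next 5.75 CPM). Herc6 was highest in PF-9363 2, at 7.73 CPM (next 5.45 CPM).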

How the results depend on the processing

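Members called numbered 31 in each comparison. Over 8 other settings they ranged from 30 to 37 with SETBP1-D868N and from 30 to 32 with PF-9363, and leaving out 1 library gave 27 to 35 and 28 to 32. All genes called were 6436 to 7086 and 10013 to 10261 without 1 library. The type I median was -0.61 to -0.44 with SETBP1-D868N and 0.56 to 0.67 with PF-9363 without 1 library. The GTPase median was -0.48 to -0.18 and -0.18 to 0.040, the last without PF-9363 2. The -0.18 with SETBP1-D868N came without SETBP1-D868N 1, where Iigp1 also entered, so it is not over the same genes. Without the filter the GTPase medians were -0.31, with Iigp1 added, and -0.19, with Tgtp1 added. Library size alone gave 14 members lower with PF-9363, a type I median of 0.34 and a GTPase median of -0.31. Dropping the filter ended the calls of Oas3 and Ifi27l2a with SETBP1-D868N and of Zbp1 and Herc6 with PF-9363, RLE size factors and DESeq2 that of Herc6, and limma-voom that of Xaf1 with SETBP1-D868N. DESeq2 added Ifit3, Oas1a, Oas2, Oasl2 and Rsad2 to the members called lower with SETBP1-D868N, and edgeR without robust estimation, which called 37, added Oas1a, Oas2, Oasl2, Rsad2, Rtp4 and Ifi204. The causes were not tested.

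Sign changes occurred only in members that were not called. With SETBP1-D868N, library size alone gave 0.0036 for Ifit2, 0.038 for Bst2, 0.044 for Ifi35, 0.029 for Gbp7 and 0.0052 for Cxcl10. Leaving out 1 library gave -0.13 to 0.0076 for Ifit2, -0.041 to 0.019 for Bst2, -0.051 to 0.034 for Ifi35, -0.088 to 0.025 for Gbp7 and -0.045 to 0.13 for Irgm1. With PF-9363, library size alone gave -0.17 for Ddx58 and -0.21 for Gbp5, and no filter gave -0.0018 for Gbp5. Leaving out 1 library gave -0.044 to 0.16 for Ddx58 and -0.14 to 0.16 for Gbp5.

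Replicate numbers did not pair the libraries: same-numbered deviations correlated at -0.18, -0.05 and -0.14 in the first experiment and at -0.04 to 0.01 in the second, and no library correlated best with its own number. With the replicate block 30 and 31 members and 6640 and 10124 genes were called. It ended the calls of Oas3, Ifi27l2a and Xaf1 and added Ifit3 and Mx2 with SETBP1-D868N, and ended that of Herc6 and added Sp100 with PF-9363. Without the filter 46 of the 49 members were tested with PF-9363, and Oasl1 and Rtp4 were added to the members called higher.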
